A study of Mus musculus with 2 samples.

Results

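Osteocalcin and the mineral-binding phosphoproteins of bone matrix were described by 8 genes, chosen by name among the 28380 genes listed in the tables of both libraries together. They are the osteocalcin genes Bglap, Bglap2 and Bglap3, the bone sialoprotein gene Ibsp, the osteopontin gene Spp1, the genes Dmp1 and Mepe of 2 further matrix phosphoproteins, and Phex, an endopeptidase of the osteoblast and osteocyte surface. All 8 were found in both tables. The cells came from femur and tibia of C57BL/6 mice at postnatal day 30, with the epiphysis removed and blood cells depleted, and were profiled on the BD Rhapsody system, in which a unique molecular identifier (UMI) marks each captured RNA molecule. The Control library was of genotype Dach1OE +/f and carried a Dach1 transgene in the Rosa26 locus with no Cre. The Dach1OE library was of genotype Apj CreERT2 - Dach1OE +/f, in which Aplnr (Apj), a gene of capillary endothelial cells (ECs), drives a Cre that tamoxifen activates and that switched the transgene on. Both groups received tamoxifen soon after birth, and there was 1 library per group. Each library was pooled from 2 mice, and both sexes were present in each. The Cre is thus directed at capillary ECs, and the cells described here are mostly other cells of the same bones.

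Osteocalcin is a small protein of osteoblasts whose glutamate residues are carboxylated with the help of vitamin K, which lets it bind calcium in the mineral. Ibsp, Spp1, Dmp1 and Mepe belong to the SIBLING family, acidic secreted phosphoproteins whose genes lie side by side and which bind collagen, integrins and hydroxyapatite. Bone sialoprotein is known for promoting mineral nucleation, osteopontin for restraining crystal growth and binding cells, and Dmp1, Mepe and Phex for the control of mineral and phosphate by osteocytes, the cells buried in bone.

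The 3 osteocalcin genes lie on chromosome 3 of the mouse genome (build GRCm38, annotation GENCODE vM21, minus strand) within 15.849 kb, with Bglap at 88383501 to 88384464, Bglap2 at 88377736 to 88378699 and Bglap3 at 88368616 to 88372743. The 4 SIBLING genes lie on the plus strand of chromosome 5 within 238.438 kb, with Dmp1 at 104202613 to 104214102, Ibsp at 104299171 to 104311469, Mepe at 104325329 to 104338611 and Spp1 at 104435118 to 104441050. Phex lies on the minus strand of the X chromosome at 157162075 to 157415312. The annotated gene Gm42793 shares 1252 bases with Spp1 on the same strand, and 3 small annotated genes lie inside Phex.

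The osteocalcin genes are near-identical copies, and this bears on what their counts can tell apart. Of the 285 coding bases, Bglap and Bglap2 differ at 4, Bglap2 and Bglap3 at 9, and Bglap and Bglap3 at 13. A stretch of 75 coding bases (bases 199 to 273, exonic) is shown for each gene because it holds 7 of the 13 positions at which the 3 genes differ, which are in capitals. The stretches lie at chr3:88383650-88383724 for Bglap, chr3:88377885-88377959 for Bglap2 and chr3:88368771-88368845 for Bglap3, and are written 5′ to 3′ on the coding strand.
Bglap: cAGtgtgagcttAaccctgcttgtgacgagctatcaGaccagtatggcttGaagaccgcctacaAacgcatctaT
Bglap2: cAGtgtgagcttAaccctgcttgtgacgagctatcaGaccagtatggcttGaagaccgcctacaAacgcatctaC
Bglap3: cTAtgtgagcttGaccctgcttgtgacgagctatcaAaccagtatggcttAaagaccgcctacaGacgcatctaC
Over whole transcripts, 66.1% of the 75-base windows of Bglap also occur in Bglap2, 3.01% of them occur in Bglap3, and 15.1% of the windows of Bglap2 occur in Bglap3 (60 of 397). The split between Bglap and Bglap2 is therefore uncertain for many reads, and that between Bglap2 and Bglap3 for some.

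The sequences before the start sites are shown for 4 members because they hold the core ACCACA of the sites of RUNX factors, among them Runx2, which osteoblasts need. The match is in capitals and reads TGTGGT where it lies on the other strand. Each is credited to RefSeq (build GRCm38.p6). Positions are counted back from the RefSeq start sites, 88384466 for Bglap, 104435111 for Spp1, 104202617 for Dmp1 and 104325329 for Mepe, which differ by a few bases from the gene coordinates above for all but Mepe. The sequence of Dmp1 stops before the annotated gene, and the others stop before the RefSeq start. Bglap (chr3:88384467-88384716, minus strand) holds the core at 132 to 127 bases before its start. Spp1 (chr5:104434861-104435110) holds it at 128 to 123 bases, Dmp1 (chr5:104202367-104202612) at 164 to 159 bases, and Mepe (chr5:104325079-104325328) on both strands, at 118 to 113 and at 80 to 75 bases.
Bglap: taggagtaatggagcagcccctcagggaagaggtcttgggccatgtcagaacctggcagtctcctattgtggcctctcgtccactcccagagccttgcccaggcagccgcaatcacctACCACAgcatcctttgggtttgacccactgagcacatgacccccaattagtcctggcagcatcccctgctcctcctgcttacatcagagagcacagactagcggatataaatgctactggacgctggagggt
Spp1: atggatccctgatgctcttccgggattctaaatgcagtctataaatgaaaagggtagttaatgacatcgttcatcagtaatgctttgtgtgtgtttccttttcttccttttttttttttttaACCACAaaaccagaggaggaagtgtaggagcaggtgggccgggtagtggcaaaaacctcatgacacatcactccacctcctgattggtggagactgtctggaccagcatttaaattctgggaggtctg
Dmp1: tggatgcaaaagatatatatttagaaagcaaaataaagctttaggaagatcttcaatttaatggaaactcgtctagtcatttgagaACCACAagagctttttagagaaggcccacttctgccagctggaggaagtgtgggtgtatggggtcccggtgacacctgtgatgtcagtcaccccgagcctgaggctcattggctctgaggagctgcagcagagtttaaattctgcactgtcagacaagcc
Mepe: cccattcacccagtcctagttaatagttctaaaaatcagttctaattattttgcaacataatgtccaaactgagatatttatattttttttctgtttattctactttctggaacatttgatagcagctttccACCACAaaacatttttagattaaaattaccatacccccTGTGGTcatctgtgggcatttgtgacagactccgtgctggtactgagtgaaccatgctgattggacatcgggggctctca
Entries were matched for 7 of the 8 members (all but Bglap2), and no ACCACA was found on either strand of the 250 bases before Bglap3, Ibsp or Phex. The core is a short run of letters and occurs on either strand in 14.05% of the 32851 start sites of the same length, so that a match describes the letters only.

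The Control table held 28720 cells with 143986818 UMIs, and 32028 cells with 166999989 UMIs were in that of Dach1OE, with 1.51 and 1.45 reads for each UMI, and 26466 and 29317 cells were kept. Dach1 was at 4.88 CPM (counts per 1e+06 UMIs of the pooled cells of a class) in Control ECs and at 198 CPM in Dach1OE ECs, in the direction of the labels. Cells were placed in 17 classes by fixed marker lists that contain none of the 8 members, and class names below stand for cells with those markers. There were 1374 Control and 1762 Dach1OE osteoblasts, 250 and 488 osteoblasts of the Gal, Notum and Cthrc1 kind (Gal-kind), and 219 and 270 osteocytes. Stromal cells comprised 2374 and 911 diaphyseal cells with Lepr and Adipoq, 783 and 535 metaphyseal cells of the Wif1 kind, 302 and 270 metaphyseal cells of the Aspn kind, and smaller classes. Sost, the defining inhibitor of mature osteocytes, was at only 27.2 and 59.9 CPM in the osteocytes, from 41 and 113 UMIs. Cells with markers of 2 lineages, or of both osteoblasts and diaphyseal stromal cells, 2054 in Control and 2410 in Dach1OE, were set aside. In all, 1049 cell indices occurred in both libraries (3.65% of the Control indices). No test was possible with 1 library per group, so all intervals are 95% intervals of counting error, and no difference between the libraries has a replicate check.

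For 7 of the 8 members, all but Mepe, the class with the highest level did not differ between the libraries, and it was not one class for all. The osteocalcin genes were highest in osteoblasts, Dmp1 and Phex in osteocytes, Ibsp in late hypertrophic chondrocytes and osteocytes, and Spp1 in Wif1-kind metaphyseal stromal cells and septoclasts, the cells with Fabp5 and Mmp9 at the growth plate border. The class with the highest level was the same under 106 of 112 combinations of member, library and alternative setting, and 4 of the 6 others concerned Mepe, which had few UMIs. The other two were Ibsp, highest in osteocytes in Control cells with Y-linked UMIs, and Spp1, highest in septoclasts in Dach1OE cells with Xist.

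**Figure D1:**
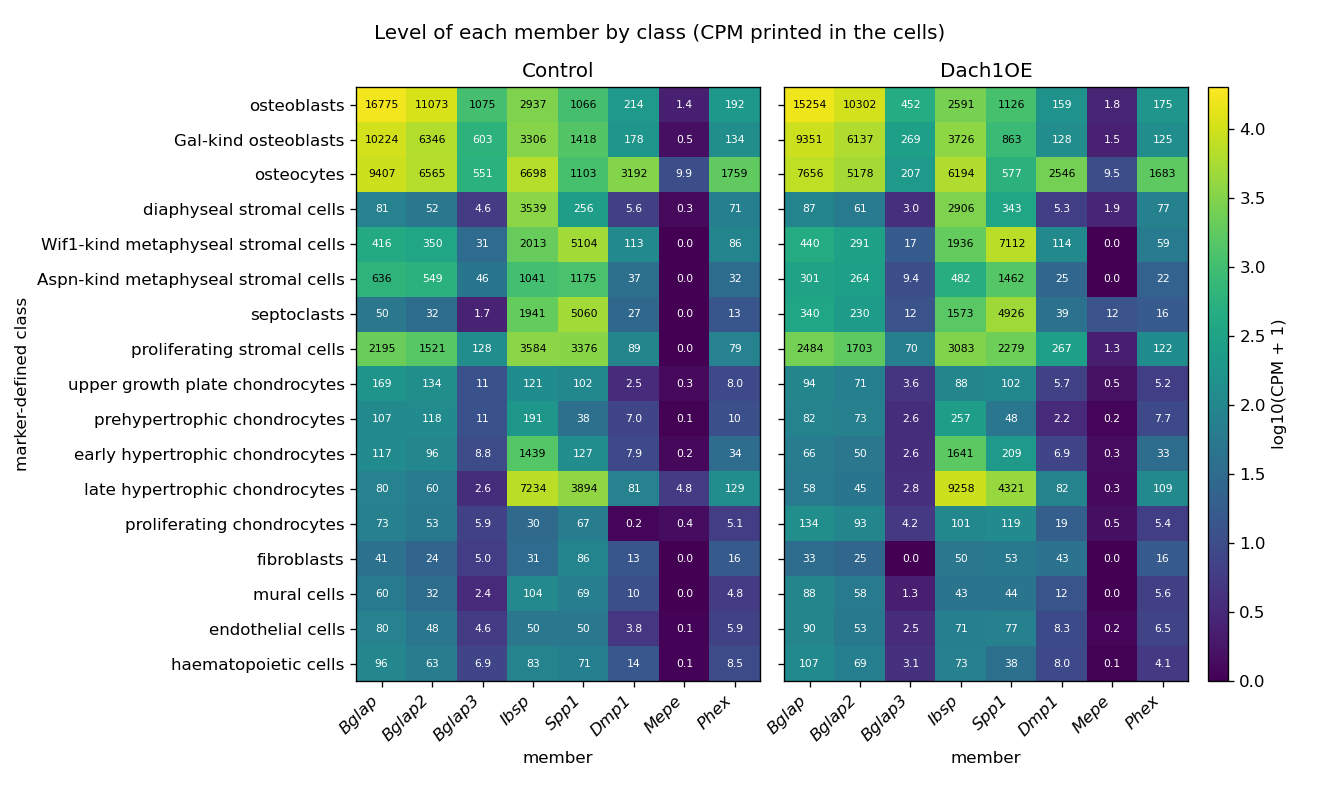
Heat map of the level of each member (columns) in each of 17 marker-defined classes (rows) in the Control and the Dach1OE library, coloured by log10(CPM + 1) with the CPM printed in each cell. The osteocalcin genes peak in osteoblasts (Bglap 16775 and 15254 CPM), Dmp1 and Phex in osteocytes, Ibsp in late hypertrophic chondrocytes and Spp1 in Wif1-kind stromal cells, in both libraries.

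Bglap, the main osteocalcin gene of bone, reached 16775 CPM (16692 to 16858) in Control osteoblasts and 15254 CPM (15185 to 15322) in those of Dach1OE. It was at 10224 and 9351 CPM in Gal-kind osteoblasts and at 9407 and 7656 CPM in osteocytes, in the same order in both libraries and with intervals that do not overlap. Proliferating stromal cells followed with 2195 and 2484 CPM, a level that a few cells made: of those with at least 4000 UMIs, 65.6% and 63.2% had no Bglap UMI, while 6.45% and 10.3% were at 10000 CPM or more. Every class below these was at 636 CPM or less. Diaphyseal stromal cells, at 80.7 and 86.8 CPM, could not be set apart from ECs, which should lack the gene and were at 80.2 and 90.003 CPM. This EC level is taken here as that of free RNA, which was not measured by itself. Fibroblasts were lower, at 40.6 and 32.6 CPM. With each cell thinned to 1000 UMIs, 84.8% of Control and 87.6% of Dach1OE osteoblasts had a Bglap UMI, against 4.15% and 5.32% of ECs and 4.44% and 4.46% of diaphyseal stromal cells. Unthinned median depths were 6756.5 and 7080.5 UMIs in osteoblasts, 2748 and 2740 in ECs and 12737 and 12033 in prehypertrophic chondrocytes. Levels set against those of ECs here and below are per UMI, and the part of such differences in depth was not tested. Osteoblasts held 66.5% and 64.9% of all Bglap UMIs in kept cells while making up 5.19% and 6.01% of those cells.

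Bglap2, the neighbouring copy, was at 11073 and 10302 CPM in osteoblasts and at 6565 and 5178 CPM in osteocytes. Its share of the UMIs of Bglap and Bglap2 together came to 39.8% (39.57 to 39.95) for Control osteoblasts and to 40.3% (40.14 to 40.48) for those of Dach1OE, and ECs had 37.6% and 37.2%. The highest shares were in prehypertrophic chondrocytes, with 52.5% and 47.1%. Levels per UMI were low there, at 1.33 and 0.907 times the EC level for Bglap and 2.44 and 1.37 times for Bglap2. Per cell the UMIs were more: 1437 Control cells of this class held 1932 of Bglap and 2133 of Bglap2. The 9074 Control ECs held 2452 and 1479. Without the 5 cells richest in these UMIs the shares there were 53.3% and 48.7%. In osteoblasts both genes were seldom apart in a cell: 1195 of the 1374 Control osteoblasts had UMIs of both, 44 of Bglap only and 34 of Bglap2 only. Where levels were low they were more often apart: 207 Control ECs had both, 683 Bglap only and 394 Bglap2 only.

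Bglap3, the copy known for a lower level in bone and for expression outside it, was the only member past 2-fold between the libraries in osteoblasts, Gal-kind osteoblasts and osteocytes, and was lower in Dach1OE in all 3. Control osteoblasts had 1075 CPM (1054 to 1096) and Dach1OE osteoblasts 452 CPM (440 to 464), a log2 ratio of -1.25 (-1.30 to -1.20). In osteocytes it was at 551 and 207 CPM (log2 ratio -1.41) and in Gal-kind osteoblasts at 603 and 269 CPM (log2 ratio -1.16, but -0.79 and no longer past 2-fold in cells with Xist). Thinned to 1000 UMIs, 53.4% of Control and 31.8% of Dach1OE osteoblasts had a Bglap3 UMI. Its share of the UMIs of the 3 osteocalcin genes was 3.72% (3.65 to 3.79) in Control osteoblasts and 1.74% (1.69 to 1.78) in Dach1OE osteoblasts. ECs, where the osteocalcin UMIs are at the level of free RNA, had 3.44% and 1.69%, and haematopoietic cells 4.14% and 1.71%. Osteoblasts held most osteocalcin UMIs of each library, and whether the UMIs in ECs and haematopoietic cells came from them was not tested. These values are therefore not counted as a separate sign of a difference outside bone-forming cells. The share was lower in the Dach1OE library in all classes except late hypertrophic chondrocytes, which had 5 and 9 Bglap3 UMIs. In septoclasts, with 1 and 10 UMIs, it was nearly equal at 2% and 1.98%. Bglap3 had 1.18 and 1.22 reads per UMI, against 1.54 and 1.43 for Bglap, and the part of sequencing depth and of read assignment between the copies in the difference was not tested. With 1 library of pooled mice per group, a difference between the mice that were pooled, their genetic background included, cannot be told apart from one between the groups.

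**Figure D2:**
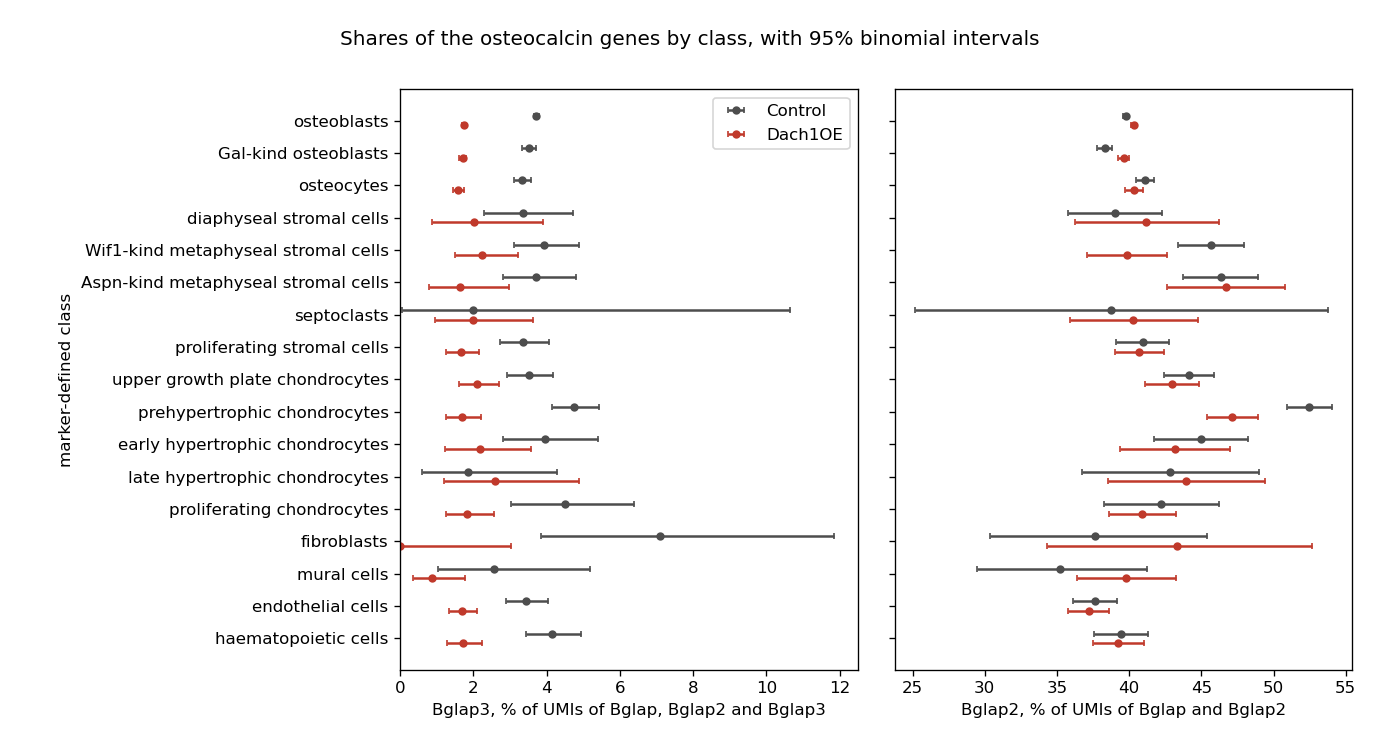
Shares of the osteocalcin genes by class (rows) in the Control (grey) and Dach1OE (red) library, as points with 95% binomial intervals: left, Bglap3 as a percentage of the UMIs of the 3 genes, right, Bglap2 as a percentage of those of Bglap and Bglap2. Bglap3 lies near 3.72% in Control and 1.74% in Dach1OE osteoblasts and shows a like gap in ECs and haematopoietic cells, whose osteocalcin UMIs are at or near the level of free RNA. The Bglap2 share is near 40.3% in most classes of both libraries.

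Ibsp, bone sialoprotein, was highest in late hypertrophic chondrocytes, at 7234 CPM in Control and 9258 CPM in Dach1OE, and next in osteocytes, at 6698 and 6194 CPM. These chondrocytes are the deepest of the growth plate, carry Col10a1 and border the newly forming bone. Diaphyseal stromal cells, which lacked osteocalcin above free RNA, had 3539 and 2906 CPM of Ibsp, and osteoblasts 2937 and 2591 CPM. Thinned to 1000 UMIs, 94.5% and 94.1% of osteocytes, 82.3% and 87.6% of late hypertrophic chondrocytes, 75.8% and 78.8% of osteoblasts and 70.9% and 65.0% of diaphyseal stromal cells had an Ibsp UMI, against 3.10% and 3.79% of ECs. In single diaphyseal cells Ibsp was spread widely, the richest cell holding 0.347% and 1.07% of the UMIs of its pool. Diaphyseal cells held 18.3% of all Ibsp UMIs in Control and 5.1% in Dach1OE, beside 2374 and 911 cells of this class. Late hypertrophic chondrocytes held 10.5% and 19.995%, from 203 and 371 cells. With 1 library per group, a difference in the number of cells cannot be told apart from one of preparation.

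Spp1, osteopontin, had another order. Wif1-kind metaphyseal stromal cells had 5104 and 7112 CPM, septoclasts 5060 and 4926 CPM, late hypertrophic chondrocytes 3894 and 4321 CPM and proliferating stromal cells 3376 and 2279 CPM. In Control the intervals of Wif1-kind cells and septoclasts overlapped, so their order is not settled. Osteoblasts had only 1066 and 1126 CPM, and osteocytes 1103 and 577 CPM. The gene was concentrated in part of the cells of a class. Among late hypertrophic chondrocytes with at least 4000 UMIs, 57.4% of Control and 45.5% of Dach1OE cells had no Spp1 UMI, while the 90th percentile was 18943 and 17618 CPM. Ibsp in the same cells had no UMI in 5.68% and 5.06%.

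Dmp1, the acidic phosphoprotein by which osteocytes are often recognised, was at 3192 and 2546 CPM in osteocytes, at 214 and 159 CPM in osteoblasts and at 113 and 114 CPM in Wif1-kind cells. ECs had 3.80 and 8.35 CPM. Osteocytes held 51.5% and 47.2% of all its UMIs. It was spread unevenly within them: of osteocytes with at least 4000 UMIs, 41.6% and 37.0% had no Dmp1 UMI, the median was 381 and 315 CPM and the 90th percentile 11424 and 9533 CPM. In proliferating stromal cells Dmp1 was at 89.1 and 267 CPM, and 1 cell held 47.8% of the Dach1OE UMIs there.

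Phex, whose loss causes a disease of phosphate wasting, was at 1759 and 1683 CPM in osteocytes, followed by osteoblasts with 192 and 175 CPM and Gal-kind osteoblasts with 134 and 125 CPM. It was more even over osteocytes than Dmp1: only 3.16% and 3.04% of those with at least 4000 UMIs had none. Diaphyseal stromal cells had 71.4 and 77.0 CPM of Phex, against 5.89 and 6.54 CPM in ECs. Mepe, a SIBLING protein of osteocytes, was near the limit of detection throughout, with 15 and 18 UMIs in osteocytes (9.94 and 9.55 CPM) and 13 and 22 UMIs in osteoblasts (1.39 and 1.78 CPM). In Wif1-kind and Aspn-kind cells of both libraries it had 0 UMIs, and 3 UMIs would be 1.22 to 2.81 CPM there. Its order over classes was not settled: in Dach1OE, septoclasts came highest with 11.53 CPM, all 10 UMIs of it from 1 cell.

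Along marker scores the members took different courses. Cells of the osteoblast, Gal-kind and osteocyte classes were binned by a score of osteocyte markers. From the lowest to the highest bin, Bglap went from 15184 to 5531 CPM in Control and from 13243 to 5028 CPM in Dach1OE. Over the same bins Dmp1 went from 197 to 5414 CPM and from 134 to 4381 CPM, and Phex from 139 to 2715 CPM and from 129 to 2537 CPM. Ibsp also went up, from 2840 to 8679 CPM and from 2700 to 7451 CPM. Spp1 was at 1126 and 1006 CPM in the lowest bin and at 238 and 189 CPM in the highest, but did not go down steadily: in the bin next to the last it was at 1990 CPM in Control, its highest value there, and at 1014 CPM in Dach1OE. Bglap was also highest in an inner bin, with 16812 and 15108 CPM. The highest bin held 107 and 149 cells, and the low values of Bglap and Spp1 were in this bin.

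In chondrocytes binned by a score of hypertrophic markers, Ibsp went from 67.4 to 7154 CPM in Control and from 49.4 to 9159 CPM in Dach1OE. Ibsp was raised in earlier bins than Spp1: in the middle bin Ibsp was at 448 and 691 CPM while Spp1, at 52.2 and 75.2 CPM, was still near its value in the lowest bin (59.9 and 69.7 CPM). In the highest bin Spp1 was at 4065 and 4224 CPM and Phex at 146 and 118 CPM. Bglap was lower there, at 41.95 and 54.6 CPM, below its level per UMI in ECs. In metaphyseal stromal cells and osteoblasts binned by osteoblast markers, Bglap went from 72.4 to 15491 CPM and from 106 to 13786 CPM. Spp1 was highest in the middle bin, at 5039 and 6233 CPM, and at 729 and 684 CPM in the highest. The scores are made of other genes of the same cells, so these trends are descriptions of how the members lie along them.

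**Figure D3:**
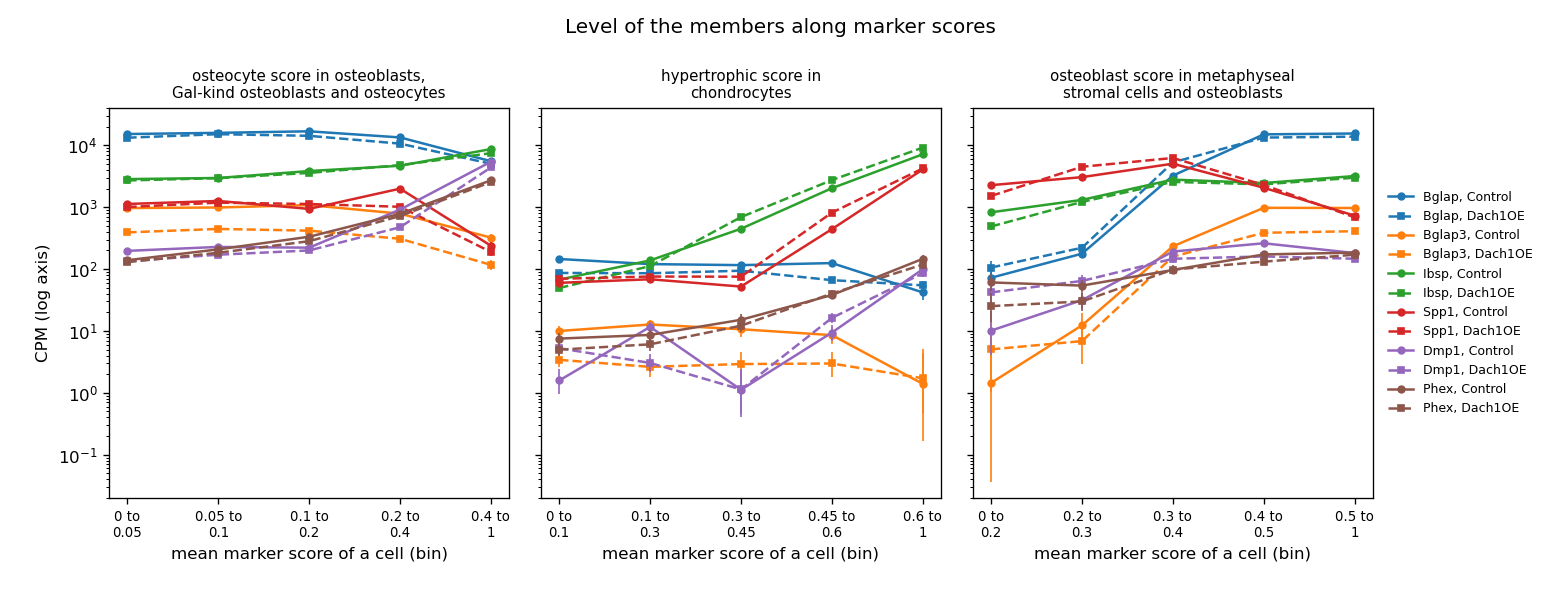
Level of 6 members (CPM, log axis, with 95% Poisson intervals as vertical lines) in bins of the mean marker score of a cell, with Control as solid lines and circles and Dach1OE as dashed lines and squares. Dmp1 and Phex climb along the osteocyte score while Bglap and Spp1 are lowest in its last bin, Ibsp climbs before Spp1 along the hypertrophic score, and Spp1 peaks in the middle bin of the osteoblast score (5039 and 6233 CPM).

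Within the osteoblast class, cells with and without a Bglap UMI differed in how often they had Spp1 and Ibsp. Thinned to 1000 UMIs, 24.8% of the 1164 Control osteoblasts with a Bglap UMI also had an Spp1 UMI, against 49.3% of the 209 without. In Dach1OE the shares were 28.7% and 47.0%, of 1542 and 219 cells. Ibsp was found in 74.1% of Control osteoblasts with Bglap and in 85.2% of those without, and in 77.1% and 90.4% in Dach1OE. Phex was found in 14.8% and 14.4% in Control and in 14.1% and 9.13% in Dach1OE, and Dmp1 in 14.5% and 9.09% and in 10.2% and 10.96%, in cells with and without Bglap in turn, so neither differed in the same way in both libraries. Over single Control osteoblasts Spearman's rho with Bglap was 0.83 for Bglap2, -0.28 for Spp1, -0.27 for Ibsp and 0.03 for Phex. This is a description over 1373 cells of 1 library, with each member thinned to 1000 UMIs in a draw of its own. The median osteoblast had 4 of the 8 members in Control and 3 in Dach1OE after thinning.

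Between the libraries most members lay close together in osteoblasts. The log2 ratio of Dach1OE over Control was -0.14 (-0.15 to -0.13) for Bglap, -0.10 for Bglap2, -0.18 for Ibsp (0.16 in cells with Y-linked UMIs), 0.08 for Spp1, -0.43 (-0.52 to -0.34) for Dmp1 and -0.14 for Phex. Only Bglap3, at -1.25, was past 2-fold, 1 of the 7 members with at least 50 UMIs over both pools. Of all 10913 genes with as many UMIs, 0.861% were past 2-fold in osteoblasts. The median ratio of the 7 members was -0.14, and that of all genes -0.01. Mepe, at 1.39 and 1.78 CPM, had too few UMIs to enter.

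In Gal-kind osteoblasts 1 of 7 members, again Bglap3, was past 2-fold, against 1.05% of all genes. Spp1 was at 1418 and 863 CPM there (log2 ratio -0.72), and Ibsp at 3306 and 3726 CPM (0.17, but -0.12 in cells with Xist). In osteocytes Bglap3 was past 2-fold, against 1.32% of all genes, and the median ratio of the 7 members was -0.33, with 0.02 for all genes. Bglap was at 9407 and 7656 CPM (-0.30), Dmp1 at 3192 and 2546 CPM (-0.33) and Phex at 1759 and 1683 CPM (-0.06, with an interval that includes 0). Spp1 in osteocytes, at 1103 and 577 CPM (-0.94), rested on few cells: 6 Control and 5 Dach1OE cells held 50% or more of its UMIs, and the ratio was 0.31 under a stricter gate against cells with markers of another class.

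None of the 6 members tested in diaphyseal stromal cells was past 2-fold (1.06% of all genes), and none of 7 in Wif1-kind cells (0.756%). Spp1 was higher in Dach1OE in both classes, with log2 ratios of 0.42 and 0.48. Of diaphyseal cells with at least 4000 UMIs, however, 59.2% of Control and 71.3% of Dach1OE cells had no Spp1 UMI, and the 90th percentile was 732 and 677 CPM. Ibsp was at -0.28 in diaphyseal and -0.06 in Wif1-kind cells, but its direction turned in cells with at least 4000 UMIs (0.09 and 0.11) and in cells with Xist (0.0012 and 0.15). Among chondrocytes, Bglap3 (38 and 15 UMIs) was the only one of 7 members past 2-fold in the early hypertrophic class, where 1.19% of all genes were, and none of 6 was in the late hypertrophic class (1.48%). Bglap3 in the early class was at 8.79 and 2.60 CPM, 1.92 and 1.06 times its EC levels. Spp1 had ratios of 0.71 and 0.15 and Ibsp of 0.19 and 0.36 in the early and late hypertrophic classes. The direction turned in the early class in cells with Xist, at -0.01 for Spp1 and -0.39 for Ibsp, and in the late class for Spp1 as a mean of per-cell CPM, at -0.12. Ibsp in the late class kept its direction but was at 0.0004 in cells with Xist.

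In the other chondrocyte classes 2 of 7 members each were past 2-fold, against 1.03% of all genes in upper growth plate, 1.52% in prehypertrophic and 1.17% in proliferating chondrocytes. Bglap3 was lower in Dach1OE in the first 2, at 11.02 and 3.56 CPM (-1.63) and at 11.2 and 2.65 CPM (-2.08). ECs had 4.58 and 2.46 CPM of Bglap3, so these levels were 2.41 and 1.45 times and 2.45 and 1.08 times those of ECs. Ibsp in proliferating chondrocytes went the other way, at 29.8 and 101 CPM (1.76), with Bglap at 72.7 and 134 CPM (0.89) and Spp1 at 66.6 and 119 CPM (0.84). All 3 were at 0.596 to 1.56 times their EC levels per UMI, in cells with a median depth of 10783 and 10659 UMIs. In Dach1OE, 4 cells held 50% or more of the Ibsp UMIs. The summed level of the 14 osteoblast markers was 3955 and 5525 CPM in proliferating chondrocytes, with none at 0, and its part in these values was not tested. Dmp1 was past 2-fold in all 3 classes but rested on single cells. It was at 2.48 and 5.68 CPM in upper (1.195), 7.02 and 2.24 CPM in prehypertrophic (-1.65) and 0.204 and 18.8 CPM in proliferating chondrocytes, there from 1 and 147 UMIs (6.52, 4.02 to 11.84). The cell with the most Dmp1 held 67.0% of the Dach1OE UMIs in upper, 70.9% of the Control UMIs in prehypertrophic and 66.0% of the Dach1OE UMIs in proliferating chondrocytes. Without it the ratios were 0.10 and -0.81 in upper and prehypertrophic chondrocytes, and proliferating chondrocytes had 0 UMIs in Control and 6.40 CPM in Dach1OE, below the EC level.

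Septoclasts had 2 of 5 members past 2-fold, against 1.52% of all genes, both higher in Dach1OE and near-identical copies of each other. Bglap was at 50.2 and 340 CPM (2.76), from 30 and 295 UMIs, and Bglap2 at 31.8 and 230 CPM (2.85), from 19 and 199 UMIs. In Dach1OE 2 cells held 50% or more of either gene. Without the richest cell of each library the ratios were 2.47 and 2.40, and in cells with Xist they were -0.75 and 0.25. The 14 osteoblast markers summed to 9672 and 14375 CPM in septoclasts, with none at 0, and their part in the result was not tested. Proliferating stromal cells had 1 of 7 members past 2-fold, Dmp1 (1.59), against 1.18% of all genes. Its ratio was 0.92 without the richest cell of each library and -0.0794 in cells with Xist. Fibroblasts, mural cells, ECs and haematopoietic cells, where the highest level of any member was 107 CPM, were not compared in this way.

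Aspn-kind metaphyseal stromal cells were the class with the most members past 2-fold among the 13 compared, 4 of 7, against 1.26% of all genes. The 4 include the near-identical copies Bglap, Bglap2 and Bglap3, whose values are not independent of each other. Bglap was at 636 and 301 CPM (log2 ratio -1.08), Bglap2 at 549 and 264 CPM (-1.06), Bglap3 at 45.5 and 9.36 CPM (-2.28) and Ibsp at 1041 and 482 CPM (-1.11). Bglap3 rested on 55 and 10 UMIs. The 14 osteoblast markers summed to 73273 and 70750 CPM in this class, with none at 0, and their part in the result was not tested. A few cells made these pools. A single Control cell held 40.6% of the Bglap UMIs, and the cell richest in Ibsp held 35.9% of the Ibsp UMIs. Without the richest cell of each library the ratios were -0.70 for Bglap, -0.78 for Bglap2 and -0.65 for Ibsp, and under the stricter gate they were -0.09, 0.02 and -1.19. The thinned shares of cells with a Bglap UMI were nearly equal, 13.9% and 13.4%. Over all bone stromal cells together, 3.9% of genes and none of the 8 members were past 2-fold. Bglap was then higher in Dach1OE, at 7946 and 9648 CPM (0.28), although it was lower in osteoblasts and osteocytes, beside the smaller number of diaphyseal cells in that library. With every subtype given the same weight the median of the members was -0.14, in place of 0.11.

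**Figure D4:**
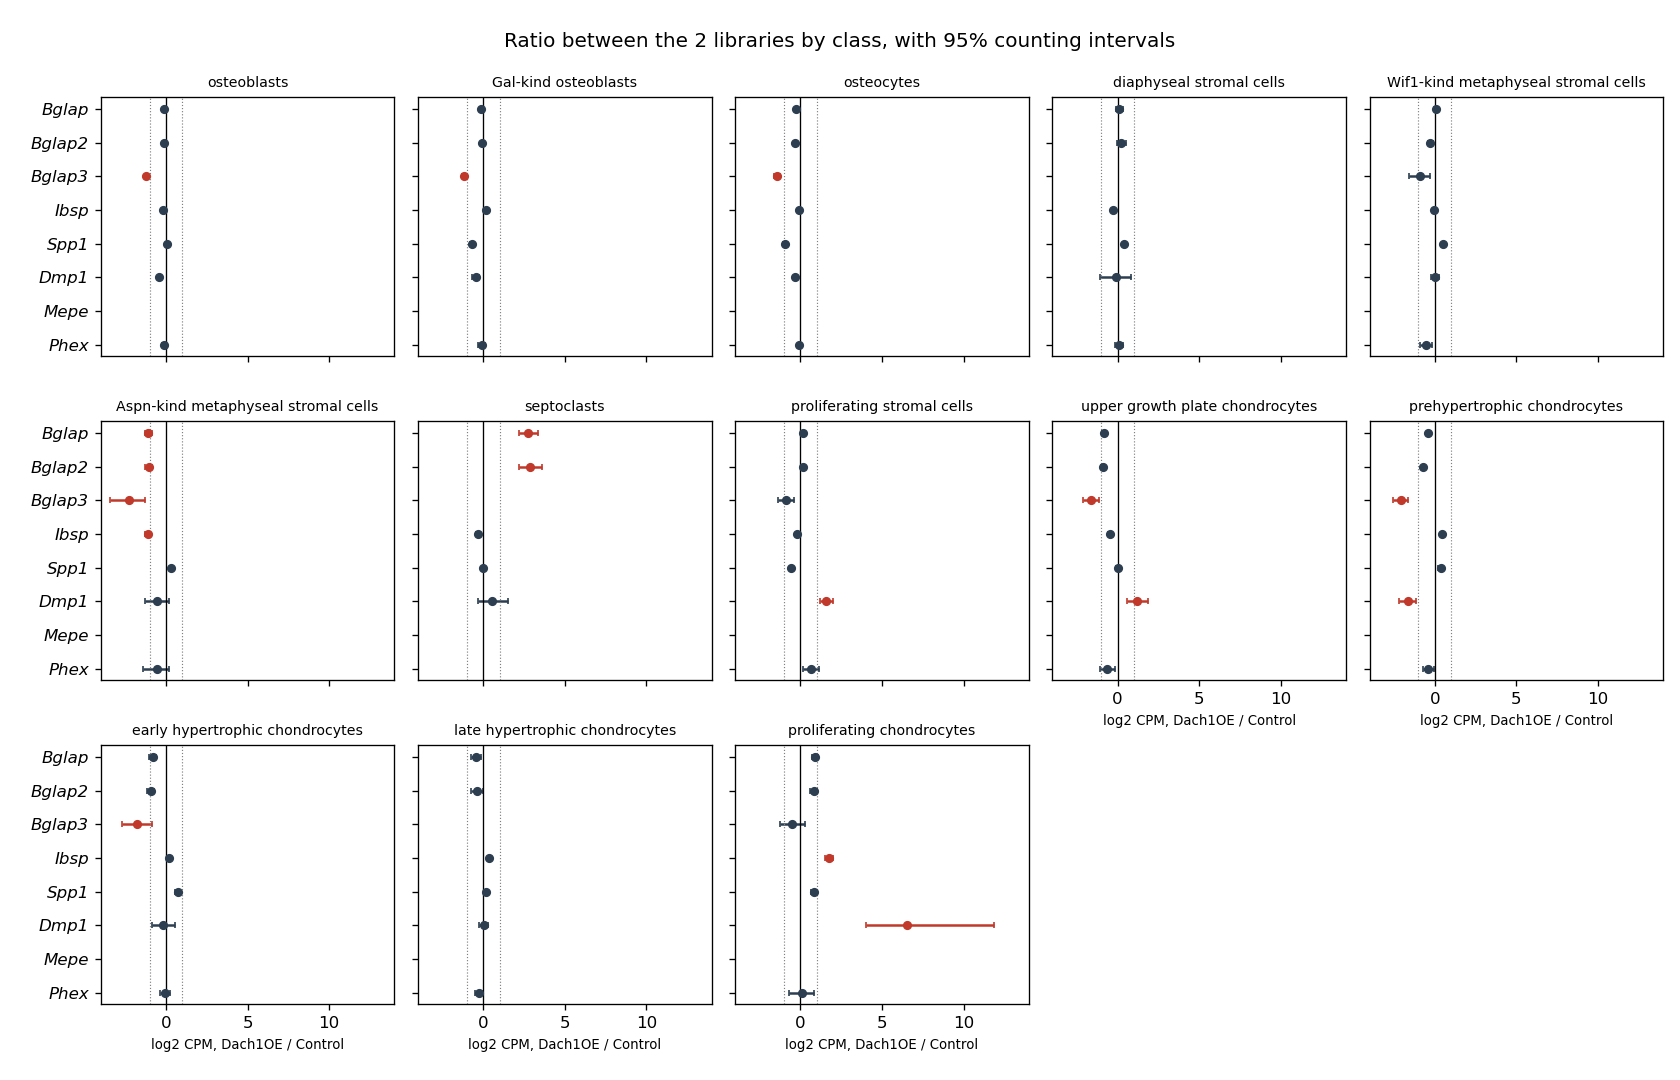
Log2 ratio of CPM, Dach1OE over Control, of each member with at least 50 UMIs in 13 classes of bone and cartilage cells, with 95% counting intervals, points past 2-fold in red and dotted lines at 2-fold. Bglap3 is past 2-fold and lower in Dach1OE in 7 classes, among them osteoblasts (-1.25), while Bglap and Bglap2 in septoclasts and Ibsp and Dmp1 in proliferating chondrocytes lie on the other side. The 7 include upper, prehypertrophic and early hypertrophic chondrocytes, where Bglap3 in Dach1OE was at only 1.45, 1.08 and 1.06 times its EC level in CPM.

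Because male and female mice were pooled in each library, the comparison was repeated in cells with Xist and no Y-linked UMIs and in cells with Y-linked UMIs and no Xist. Bglap3 in osteoblasts was at 1090 and 1150 CPM in these cells of Control and at 460 and 432 CPM in those of Dach1OE, so the libraries did not overlap. Bglap (16865 and 18335 against 15666 and 14554 CPM), Bglap2 and Phex also had both Control values above both Dach1OE values in osteoblasts, as did 16.7% of all genes. None of the 7 members with at least 50 UMIs was the other way round, as were 21% of all genes, and Ibsp, Spp1 and Dmp1 overlapped. In cells with neither mark Phex was nearly equal, at 175 and 178 CPM. In osteocytes Control was above for Bglap, Bglap2, Bglap3, Spp1 and Dmp1 (15.5% of all genes), and none of the 7 was above in Dach1OE (17.6% of all genes). In osteocytes with neither mark Dmp1 was nearly equal, at 3384 CPM in 87 Control and 3247 CPM in 106 Dach1OE cells. Bglap, Bglap2, Bglap3 and Spp1 were lower in Dach1OE there too. Mepe had at most 10 UMIs in any pool with 1 of the marks and was left out. In Aspn-kind cells Control was above for Bglap, Bglap2, Bglap3 and Ibsp (17.2% of all genes) and Dach1OE for Spp1, at 719 and 959 against 1934 and 1740 CPM (17.6% of all genes). Spp1 was the other way round in the Aspn-kind cells with neither mark, at 1804 CPM in 124 Control cells and 874 CPM in 117 of Dach1OE. These values split the same 2 libraries and are no replicates of a library. With 2 mice per library, the cells of either sex come in effect from 1 mouse.

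**Figure D5:**
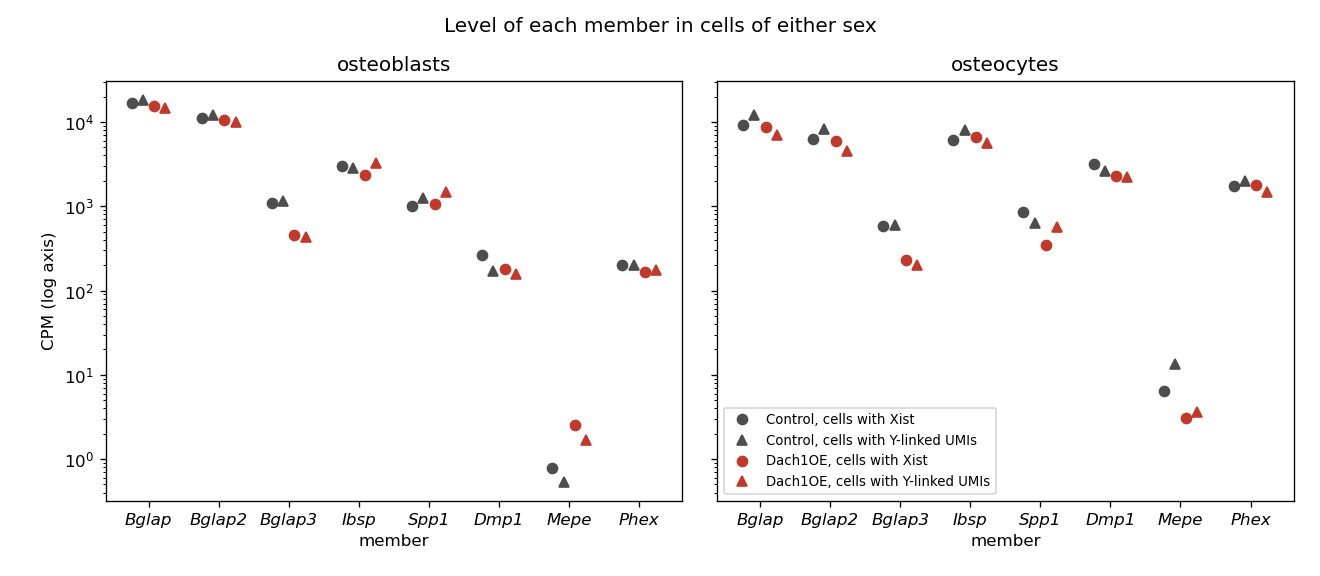
Level of each member (CPM, log axis) in osteoblasts and osteocytes, in cells with Xist (circles) and with Y-linked UMIs (triangles) of the Control (grey) and Dach1OE (red) library. For Bglap3 both Control values lie above both Dach1OE values in either class (1090 and 1150 against 460 and 432 CPM in osteoblasts), while Ibsp overlaps.

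Other genes of mineralized matrix were read against the same shares of all genes past 2-fold, 0.861% in osteoblasts and 1.32% in osteocytes, at which lists of 4 to 8 genes would mostly hold none. Of the enzymes that carboxylate, phosphorylate or cut these proteins (Ggcx, Vkorc1, Furin, Bmp1, Fam20c, Fam20a), 0 of 6 tested in osteoblasts and 0 of 5 in osteocytes were past 2-fold. The same held for 4 and 4 genes of the collagen scaffold, 5 and 4 of mineralization, 8 and 8 regulators of the members, and 6 and 6 receptors and integrins. Runx2 was at 224 and 218 CPM and Sp7 at 372.3 and 391.7 CPM in osteoblasts. Of the 6 other mineral-binding proteins only Sparc and Mgp had enough UMIs. Sparc, the collagen-binding osteonectin, had log2 ratios of 0.05 and 0.09 in osteoblasts and osteocytes. Mgp, a vitamin K-dependent inhibitor of calcification, was past 2-fold, at 18.6 and 38.2 CPM in osteoblasts and at 45.7 and 155 CPM in osteocytes. The summed level of 7 markers of mural cells moved with it, at 43.28 and 88.02 CPM in osteoblasts and at 45.7 and 134 CPM in osteocytes, with none of the 7 at 0, and their part in the result was not tested. Of the osteocyte phosphate and Wnt signals, 0 of 2 tested in osteoblasts and 1 of 3 in osteocytes were past 2-fold. This was Sost, the Wnt inhibitor of osteocytes and itself a marker of the gate, with a log2 ratio of 1.14 (0.61 to 1.69).

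The genes with the most similar pattern over the 34 pools of class and library, by Pearson's r of log2(CPM + 1) among 12912 genes with at least 500 UMIs, were in part shared between members. They were Ifitm5, Entpd3 and Cpz for Bglap (0.98, 0.97 and 0.96) and for Bglap2, and Cntnap5b, Ifitm5 and Cpz for Bglap3. For Ibsp they were Hpgd, Irx5 and Spaca1 (0.91, 0.89 and 0.86), and for Spp1 Mmp13, Hpgd and Sbk1 (0.87, 0.87 and 0.83). Dmp1 had Lpar3, Dkk1 and Dlx3 (0.90, 0.89 and 0.88), and Phex Irx5, Dkk1 and Ccdc194 (0.89, 0.89 and 0.84). Mepe, with its few UMIs, had Ube2g1, Galnt3 and Dkk1 (0.75, 0.70 and 0.65). Ifitm5, Irx5, Dkk1, Dlx3 and Mmp13 are markers that defined the classes, and pools of 1 library share their depth and free RNA. Among the members, r was 0.997 between Bglap and Bglap2, 0.86 between Dmp1 and Phex, 0.85 between Ibsp and Phex and 0.81 between Ibsp and Spp1, and 0.48 between Bglap and Spp1.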

How the data were processed

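Single-cell RNA sequencing was analysed from 1 Control and 1 Dach1OE library. The authors deposited whole-number counts per cell and gene, without normalization: the reads, the raw UMIs, and the UMIs corrected by recursive substitution, a step that joins identifiers held to be sequencing variants of each other. Per the file headers, these counts come from the BD Rhapsody WTA Analysis Pipeline 1.11 with GRCm38 and intronic reads counted, and the methods state another pipeline version. Whether the counting used strand is not given in the sources used here.

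Cells with 500 to 6000 genes and under 25% mitochondrial UMIs were kept. Each was scored on marker lists (mean of its log-scaled counts, each marker scaled to its 99.5th percentile) and placed in a class by fixed score cuts. Of osteoblasts, 6.55% and 7.04%, and of osteocytes, 10.5% and 12.2%, lay within 10% of a cut. Cells over the cuts of 2 lineages, or over both the osteoblast and the diaphyseal stromal cut, were set aside. This step stands for doublet removal, and no doublet caller was run. Cells over the cuts of other pairs of stromal classes were not set aside by it, so mixes of such classes may remain. The cuts were set after the score distributions had been seen. The members, lists and comparisons were chosen with earlier results of these data known.

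Corrected UMIs were summed per class and library and divided by the pool total (CPM). Intervals are exact 95% Poisson intervals for CPM, exact Clopper-Pearson intervals for shares and exact conditional intervals for ratios, and cover counting error only. Genes with at least 50 UMIs over both pools and 1 or more in each entered a ratio, and 2-fold is a size and no test. Shares of cells used cells thinned to 1000 UMIs, without shallower cells (1 of 1374 Control osteoblasts). Each member was thinned in a draw of its own, so the members of a cell were not drawn together. All 8 members were named, with the 3 genes most similar to each and the genes of the fixed lists past 2-fold. Analyses used Python 3.11.15, numpy 2.4.6, scipy 1.17.1, pandas 2.3.3, Biopython 1.88 and, for TMM factors, edgeR 4.0.16 in R 4.3.3. Alternatives covered raw UMIs, filters, scaling, depth, gates and sex of the cells.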

Additional observations from a re-analysis of the deposited data

Results flagged for a closer look

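Several members had log2 ratios (Dach1OE over Control) of opposite sign in cells with Xist and in cells with Y-linked UMIs, with counting intervals on either side of 0. How many of all genes do the same was not counted, so this list does not set the members apart from other genes. The difference between the sexes was not tested, since each sex has 1 pool per library. Each pool comes in effect from 1 mouse, so such a difference cannot be told apart from one between single mice. Ibsp had -0.36 and 0.16 in osteoblasts, -0.12 and 0.40 in Gal-kind osteoblasts and 0.12 and -0.49 in osteocytes, in cells with Xist and with Y-linked UMIs in turn. In Gal-kind osteoblasts Bglap had 0.27 and -0.60 and Bglap2 0.34 and -0.46. Diaphyseal stromal cells, where osteocalcin is at the level of free RNA, had 0.70 and -1.998 for Bglap and 1.24 and -3.69 for Bglap2. Dmp1 in Wif1-kind cells had 0.54 and -1.28. In septoclasts Ibsp had 0.83 and -1.24 and Spp1 2.28 and -1.69, and Ibsp had 0.25 and -1.43 in proliferating stromal cells. The septoclast values rest on 51 Control and 46 Dach1OE cells with Xist, and on 25 and 68 cells with Y-linked UMIs. Among chondrocytes, Spp1 had -0.57 and 1.47 in the upper growth plate and -0.25 and 0.58 in prehypertrophic cells, Ibsp had -1.12 and 1.86 in prehypertrophic and -0.39 and 0.41 in early hypertrophic cells, and Phex had -1.01 and 0.85 in the latter.

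Mepe had 44 UMIs in Control and 12 UMIs in Dach1OE in cells that fell in no class, which the comparisons leave out. These were 40.4% and 10.5% of its UMIs in kept cells.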

How the results depend on the processing

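No paired analysis was possible because each group has 1 library, and for the same reason no replicate could be left out. Of 1023 ratios of a member in a class under an alternative, 932 had the sign of the reported value, and of 196 that concern a ratio past 2-fold, 186 kept the sign and 168 stayed past 2-fold. The exceptions in sign were Bglap2 in Aspn-kind cells, at 0.0207 under the stricter gate, Bglap in septoclasts, at -0.75 in cells with Xist, and Dmp1. Dmp1 was at -0.0794 in proliferating stromal cells with Xist, at -0.17 and -0.40 in upper chondrocytes with Xist and with Y-linked UMIs, and in prehypertrophic chondrocytes at 0.82 with 1000 to 6000 genes per cell, 0.0800 with under 10% mitochondrial UMIs, 0.0993 under the stricter gate, 2.30 with Xist and 0.23 with Y-linked UMIs. Bglap3 stayed between -1.41 and -1.21 in osteoblasts and between -1.55 and -1.36 in osteocytes, and in Gal-kind osteoblasts it was at -0.79 in cells with Xist. The median over the members in osteoblasts moved to -0.27 in cells with Xist. In osteocytes it was -0.38 with under 10% mitochondrial UMIs, -0.23 under the stricter gate, -0.0906 in cells with Xist and -0.49 in cells with Y-linked UMIs. Over all bone stromal cells it was 0.15 with under 10% mitochondrial UMIs, -0.0545 in cells with at least 4000 UMIs, 0.23 in cells with Xist, -0.0453 in cells with Y-linked UMIs, 0.31 with TMM scaling, 0.34 as a mean of per-cell CPM and -0.14 with equal weight of subtypes. With no minimum of UMIs, 2331 genes were past 2-fold in osteoblasts in place of 94, among 18986 genes in place of 10913. The cause of these moves was not tested. The alternative without the richest cell of each member was chosen after seeing the data. Depth limits Mepe, and Dmp1 and Phex outside osteocytes and osteoblasts.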
